A study of Mus musculus with 6 samples.

Results

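The citric acid cycle enzymes described here are Cs, Idh1, Idh2, Idh3a, Ogdh, Sucla2, Suclg1, Fh1 and Mdh2, chosen by gene symbol, and all 9 had a row among the 16281 genes of the count table. RNA was measured in CD8+ T cells from the spleens of C57BL/6 mice carrying the transgene Tg(TcraTcrb)1100Mjb (OT1 mice), whose T-cell receptor recognizes an ovalbumin peptide. In 3 samples (GSK) the inhibitor GSK2879552, which blocks the histone demethylase LSD1, was present at 0.5 μM throughout activation and expansion, and the 3 control samples (Veh) received vehicle. All 6 samples shared the rest of the culture, which was 48 h with plate-bound anti-CD3 (2 μg/ml), soluble anti-CD28 (2 μg/ml) and IL-2 (20 ng/mL), and then 3 days of growth in IL-2. The receptor transgene and the in vitro activation were thus common to both groups. Per the study's paper the cells came from 3 separate OT1 mice, and neither which cultures shared a mouse nor the age of these mice is given in the sources used here.

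The citric acid cycle oxidizes acetyl units from glucose, fatty acids and amino acids in the mitochondrial matrix, and its dehydrogenases hand electrons to the respiratory chain. It also supplies citrate for lipid synthesis in the cytosol and 2-oxoglutarate, the co-substrate of many histone and DNA demethylases. Activated CD8+ T cells feed the cycle with glucose and glutamine and draw intermediates from it for growth. Cytosolic and mitochondrial relatives, such as IDH1 and IDH2, catalyze the same reaction in different compartments.

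In GSK, 4 of the 9 enzymes rose, 1 fell and 4 did not pass the test. Idh3a, the catalytic alpha subunit of the NAD-dependent isocitrate dehydrogenase, rose by 22.9%, Mdh2, the mitochondrial malate dehydrogenase, by 14.2%, Ogdh, the first enzyme of the 2-oxoglutarate dehydrogenase complex, by 10.6%, and Cs, citrate synthase, by 8.98%. Idh1, the cytosolic and peroxisomal NADP-dependent isocitrate dehydrogenase, fell (-19.4%, or -0.31 on the log2 scale). Every one of these differences was small, and 0 of the 9 enzymes passed a fold change of 1.5. Idh2, Sucla2, Suclg1 and Fh1 did not pass. The test was edgeR's quasi-likelihood test on the counts of the 11698 genes with enough reads, called at a Benjamini-Hochberg adjusted p under 0.05 with n = 3 per group. Of all genes tested, 16.6% were called higher and 15.5% lower at this threshold, and 2.22% and 4.09% when a fold change over 1.5 was also asked for. The median log2 fold change of the 9 enzymes was 0.099, and that of all genes tested was -0.0039. The split of higher and lower calls over all genes, 1941 to 1819, turned to 1507 to 2254 with upper-quartile scaling, under which 2 of the 9 enzymes, Idh3a and Mdh2, were higher and Idh1 was lower.

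Promoters are shown for 4 of the 5 enzymes whose RNA differed between the groups. Sequences are from RefSeq on GRCm38.p6, where a window of 300 bases, 250 before the start and 50 after, was listed for 8 of the 9 enzymes, all but Idh3a. The 250 bases before the start are printed 5′ to 3′ on the strand of the gene for Cs (chr10:128337477-128337726, plus strand), Ogdh (chr11:6291347-6291596, plus strand, the farthest upstream of its 6 starts) and Mdh2 (chr5:135778399-135778648, plus strand), which rose, and for Idh1 (chr1:65186480-65186729, minus strand, the farther upstream of its 2 starts), which fell. Capitals mark the GC box and the CCAAT box on either strand.
Cs: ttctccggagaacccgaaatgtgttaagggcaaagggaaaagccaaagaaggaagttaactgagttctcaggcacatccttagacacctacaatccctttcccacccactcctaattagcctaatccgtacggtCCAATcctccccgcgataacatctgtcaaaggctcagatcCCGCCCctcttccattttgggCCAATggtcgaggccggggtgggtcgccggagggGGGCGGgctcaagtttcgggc
Ogdh: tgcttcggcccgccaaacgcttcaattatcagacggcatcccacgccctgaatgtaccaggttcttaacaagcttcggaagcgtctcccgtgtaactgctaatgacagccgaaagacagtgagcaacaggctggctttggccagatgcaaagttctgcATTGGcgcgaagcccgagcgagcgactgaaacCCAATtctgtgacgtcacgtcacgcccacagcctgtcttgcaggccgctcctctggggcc
Mdh2: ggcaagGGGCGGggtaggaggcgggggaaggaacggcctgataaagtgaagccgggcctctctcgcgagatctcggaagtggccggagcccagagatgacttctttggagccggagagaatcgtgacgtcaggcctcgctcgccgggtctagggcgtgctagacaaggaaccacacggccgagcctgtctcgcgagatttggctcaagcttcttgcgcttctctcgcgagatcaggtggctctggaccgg
Idh1: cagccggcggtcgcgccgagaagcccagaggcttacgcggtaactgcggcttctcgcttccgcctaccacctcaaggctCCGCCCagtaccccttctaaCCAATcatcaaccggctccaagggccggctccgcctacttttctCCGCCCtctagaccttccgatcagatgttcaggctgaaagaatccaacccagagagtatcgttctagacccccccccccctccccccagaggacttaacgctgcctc

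The letters of the GC box, GGGCGG on either strand, were in 7 of the 8 windows (Cs, Idh1, Idh2, Ogdh, Sucla2, Fh1 and Mdh2) and in 35.7% of all 32851 windows. In Ogdh they lie after the start, outside the printed bases. The CCAAT box was in 5 of the 8 windows (Cs, Idh1, Idh2, Ogdh and Fh1) and in 37.4% of all windows, so it was in the windows of 2 genes that rose, 1 that fell and 2 that did not pass. The HIF core, ACGTG, which is part of the E-box letters CACGTG, was in the Ogdh window alone among the 8 and in 19.6% of all windows. The E-box was in 0 of the 8 and in 7.15% of all. The letters GCATGCGC, searched for NRF1, were in 0 of the 8 and in 2.71% of all windows. For the estrogen-related receptors the search used AAGGTCA, found in 0 of the 8 and in 4.72% of all, and for ETS factors CCGGAAG, in 0 of the 8 and 8.86% of all. These are matches of letters only. The 8 windows are 1 per enzyme, whereas the 32851 hold every listed start, several for some genes, and were not limited to the genes tested here. The 2 sets are thus unlike, and no enrichment was tested. The windows of Cs, Idh1, Idh2, Ogdh and Fh1 each held both the GC box and the CCAAT box. By base composition, the 7 windows with a GC box had 54.3% (Fh1) to 68.3% (Idh2) G and C and that of Suclg1 had 51.0%, against a median of 52.7% over all windows, and the part of this in the counts of matches was not tested.

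Levels are given as CPM, the usual depth-scaled read count of a gene, with each sample's depth adjusted by TMM (trimmed mean of M-values), and total counts lay between 18288447 and 18918811 in Veh and between 19149909 and 19846720 in GSK. The cells carried the markers of their label, with Cd8a averaging 516 CPM in Veh against 541 CPM in GSK, and the summed level of the 5 measured CD8 T-cell markers was 1937 to 2036 CPM in Veh and 1752 to 1869 CPM in GSK. The 6 B-cell markers summed to 6.20 to 8.16 CPM in Veh and 7.82 to 9.21 CPM in GSK, and the 6 myeloid markers to 3.97 to 5.55 and 1.67 to 3.19 CPM. The 3 dendritic markers summed to 3.27 to 4.84 and 1.77 to 2.62 CPM, the 3 NK markers to 1.58 to 2.36 and 2.38 to 3.78 CPM, and the 3 CD4 T-cell markers, mostly Zbtb7b, to 43.1 to 52.9 and 39.2 to 44.8 CPM. By edgeR's quasi-likelihood test, 3 of the 5 CD8 T-cell markers were lower in GSK (Cd3d, Cd3e and Cd3g), as were 1 of the 3 tested myeloid markers (Fcgr3) and 1 of the 2 tested dendritic markers (Itgax), and 1 of the 2 tested B-cell markers was higher (Cd22). Over all genes tested, 15.5% were lower and 16.6% higher. The highest group mean among the B-cell markers was 6.51 CPM (Cd79b in Veh), among the dendritic markers 3.39 CPM (Itgax in Veh), among the NK markers 3.03 CPM (Klrb1c in GSK) and among the myeloid markers 2.44 CPM (Itgam in Veh), while Ms4a1, Cd79a, Pax5, Csf1r, Adgre1, Cd14, Flt3 and Ncr1 were at 0.36 CPM or less. The 5 erythroid markers summed to 0.158 to 0.268 CPM in Veh and 0.101 to 0.365 CPM in GSK. The part of these cells in the results was not tested. In bulk RNA, fewer cells with a transcript and less of it per cell cannot be told apart.

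Cs (Entrez gene 12974, chromosome 10 from 128337727 to 128362482 on GRCm38) encodes the enzyme that joins acetyl-CoA to oxaloacetate and so opens the cycle. Its RNA was at 386, 397 and 393 CPM in the Veh samples and at 437, 406 and 438 CPM in the GSK samples. All GSK samples were above all Veh samples, although GSK replicate 2 came within 10 CPM of the highest Veh sample. The Veh mean was 392 ± 5.68 CPM and the GSK mean 427 ± 18.5 CPM (SD, n = 3), a log2 fold change of 0.12 (SE 0.041, edgeR quasi-likelihood adjusted p = 0.034). This was the least stable call of the 5: the adjusted p was 0.11 without Veh replicate 1, 0.066 without Veh replicate 2, 0.084 without Veh replicate 3, 0.15 without GSK replicate 1 and 0.10 without GSK replicate 3, and 0.0047 without GSK replicate 2 (edgeR). It was also above 0.05 with upper-quartile scaling (0.12) and with library totals only (0.059). Of the stretches of 31 bases in Cs transcripts, 4.33% also occur in Csl, a testis-type relative of citrate synthase whose mean was 0.212 CPM in Veh against 0.225 CPM in GSK, too low to be tested.

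The mitochondrial NAD-dependent isocitrate dehydrogenase makes 2-oxoglutarate in the forward direction of the cycle, and its alpha subunit holds the catalytic site. Idh3a (Entrez gene 67834, chromosome 9 from 54586511 to 54604662) was at 97.6, 110 and 105 CPM in Veh and at 124, 119 and 141 CPM in GSK. Every GSK sample was above every Veh sample, with GSK replicate 3 highest. The log2 fold change was 0.30 (SE 0.065, edgeR quasi-likelihood adjusted p = 0.0047), the means being 104 ± 6.03 CPM (Veh) and 128 ± 11.4 CPM (GSK) (SD, n = 3). Leaving out any 1 sample kept it between 0.22 and 0.35, and the adjusted p reached at most 0.024 (edgeR).

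The other subunits of this enzyme did not pass the test. Idh3b, a regulatory subunit whose exons overlap Nop56 on the opposite strand, had a log2 fold change of -0.033 (SE 0.045, adjusted p = 0.61, edgeR), at 135 ± 3.60 CPM in Veh against 132 ± 3.95 CPM in GSK (SD, n = 3). Idh3g, the other regulatory subunit, had one of -0.066 (SE 0.048, adjusted p = 0.32, edgeR). Within each sample the log2 ratio of Idh3a to Idh3b counts was -0.43, -0.30 and -0.41 in Veh and -0.044, -0.20 and 0.092 in GSK. This ratio needs no scaling between samples, and the groups did not overlap. Its mean rose by 0.33, and the exact permutation test (two-sided) gave p = 0.1, which is the smallest that 3 samples against 3 can give.

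**Figure D1:**
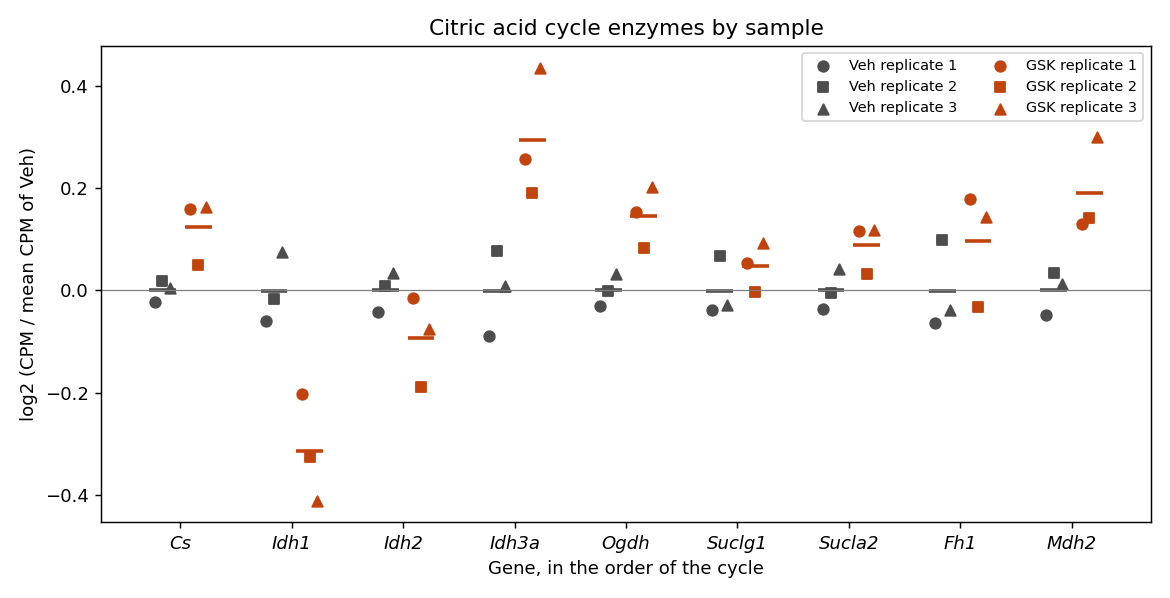
Level of each of the 9 enzymes in every sample, as the log2 of its CPM over the mean CPM of the Veh samples, with a horizontal bar at each group's mean (n = 3) and a marker shape for each replicate number. All GSK samples lie above all Veh samples for Cs, Idh3a, Ogdh and Mdh2 and below them for Idh1, and Veh replicate 1 is the lowest Veh sample for all 9 enzymes.

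Idh1 and Idh2 encode the NADP-dependent enzymes, which do not supply the respiratory chain but interconvert isocitrate and 2-oxoglutarate with NADPH in the cytosol and in mitochondria. Idh1 (Entrez gene 15926, chromosome 1 from 65158616 to 65186479) was at 28.1, 28.9 and 30.8 CPM in Veh and at 25.4, 23.3 and 22.0 CPM in GSK. It was lower in every GSK sample than in any Veh sample. The means were 29.3 ± 1.40 CPM in Veh and 23.6 ± 1.72 CPM in GSK (SD, n = 3), a log2 fold change of -0.31 (SE 0.078, edgeR quasi-likelihood adjusted p = 0.0090). The adjusted p stayed at or under 0.044 with any single sample left out (edgeR).

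Idh2 (Entrez gene 269951, chromosome 7 from 80094845 to 80118608) was at 31.5, 32.6 and 33.2 CPM in Veh and at 32.1, 28.4 and 30.8 CPM in GSK. The groups overlapped, and the difference did not pass (log2 fold change -0.093, SE 0.070, adjusted p = 0.34, edgeR's quasi-likelihood test). Within each sample the log2 ratio of Idh2 to Idh1 counts was 0.17, 0.17 and 0.11 in Veh and 0.34, 0.29 and 0.48 in GSK. The GSK samples were all higher, by 0.22 on average, with p = 0.1 in the exact permutation test (two-sided). No stretch of 31 bases was shared between the transcripts of these genes and those of any other annotated gene.

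The 2-oxoglutarate dehydrogenase complex turns 2-oxoglutarate into succinyl-CoA and is built from 3 enzymes. Ogdh (Entrez gene 18293, chromosome 11 from 6291597 to 6359094), its decarboxylase, was at 208, 212 and 217 CPM in Veh and at 236, 225 and 244 CPM in GSK. The groups did not overlap. The log2 fold change was 0.15 (SE 0.044, adjusted p = 0.023, edgeR's quasi-likelihood test), with means of 212 ± 4.55 and 235 ± 9.67 CPM (SD, n = 3). The adjusted p was above 0.05 without Veh replicate 1 (0.089), Veh replicate 2 (0.066), GSK replicate 1 (0.091) or GSK replicate 3 (0.082), and with upper-quartile scaling (0.076) (edgeR).

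Dlst, the succinyltransferase core of the same complex, rose from 150 ± 3.25 to 202 ± 7.37 CPM (SD, n = 3), a log2 fold change of 0.43 (SE 0.044, adjusted p = 2.8e-05, edgeR's quasi-likelihood test). Its RefSeq region overlaps Prox2, without an overlap of annotated exons. The regions of Cs, Ogdh and Suclg1 likewise overlap other RefSeq genes without an overlap of annotated exons. Dld, the third enzyme, which also serves pyruvate dehydrogenase and other complexes, was at 94.9 ± 1.75 CPM in Veh against 93.2 ± 5.55 CPM in GSK (log2 fold change -0.026, SE 0.053, adjusted p = 0.73, edgeR). The complex thus held genes that rose by 34.4% (Dlst) and 10.6% (Ogdh) and 1 that did not pass (Dld).

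Succinyl-CoA synthetase is a dimer of the alpha subunit SUCLG1 with a beta subunit that sets the nucleotide, SUCLA2 for ADP and SUCLG2 for GDP. Suclg1 (Entrez gene 56451, chromosome 6 from 73248505 to 73276907) was at 83.4, 89.7 and 84.0 CPM in Veh and at 88.9, 85.5 and 91.3 CPM in GSK. Sucla2 (Entrez gene 20916, chromosome 14 from 73552786 to 73596144) was at 58.0, 59.3 and 61.3 CPM in Veh and at 64.5, 60.8 and 64.6 CPM in GSK. In both genes the groups overlapped and the test was not passed, with log2 fold changes of 0.047 (SE 0.051, adjusted p = 0.51) and 0.088 (SE 0.054, adjusted p = 0.23) by edgeR. Their log2 ratio within a sample, Sucla2 to Suclg1, was -0.53 ± 0.072 in Veh and -0.48 ± 0.019 in GSK (SD, n = 3), with p = 0.5 in the exact permutation test (two-sided). The GTP-forming subunit Suclg2 rose from 44.9 ± 0.153 to 51.4 ± 1.86 CPM (SD, n = 3; log2 fold change 0.19, SE 0.057, adjusted p = 0.019, edgeR), a call that missed the threshold without Veh replicate 1 (0.056), Veh replicate 2 (0.052), Veh replicate 3 (0.0502) or GSK replicate 1 (0.093).

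Fh1 encodes fumarase, which hydrates fumarate to malate. Fh1 (Entrez gene 14194, chromosome 1 from 175601378 to 175625635) was at 75.2, 84.2 and 76.6 CPM in Veh and at 89.1, 76.9 and 86.9 CPM in GSK. The groups overlapped, since GSK replicate 2 lay below Veh replicate 2. The log2 fold change was 0.099 (SE 0.065, adjusted p = 0.26, edgeR's quasi-likelihood test), and it was 0.16 with an adjusted p of 0.045 without GSK replicate 2.

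Mdh2 encodes the malate dehydrogenase of the matrix, which regenerates oxaloacetate. Mdh2 (Entrez gene 17448, chromosome 5 from 135778649 to 135790386) was at 270, 285 and 281 CPM in Veh and at 305, 307 and 343 CPM in GSK. All GSK samples were higher than all Veh samples, with GSK replicate 3 well above the other two. The log2 fold change was 0.19 (SE 0.050, adjusted p = 0.010, edgeR's quasi-likelihood test), with means of 279 ± 8.15 and 318 ± 21.1 CPM (SD, n = 3). The adjusted p was 0.0501 without Veh replicate 1 and at most 0.038 without any other sample (edgeR).

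Mdh1, the cytosolic malate dehydrogenase of the malate-aspartate shuttle, whose exons overlap Wdpcp on the opposite strand, was at 232 ± 4.82 CPM in Veh against 238 ± 5.42 CPM in GSK (SD, n = 3; log2 fold change 0.035, SE 0.041, adjusted p = 0.55, edgeR). The log2 ratio of Mdh2 to Mdh1 counts within a sample was 0.21, 0.33 and 0.25 in Veh and 0.39, 0.37 and 0.50 in GSK. The ratio was thus higher in every GSK sample, by 0.16 on average, with p = 0.1 in the exact permutation test (two-sided).

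**Figure D2:**
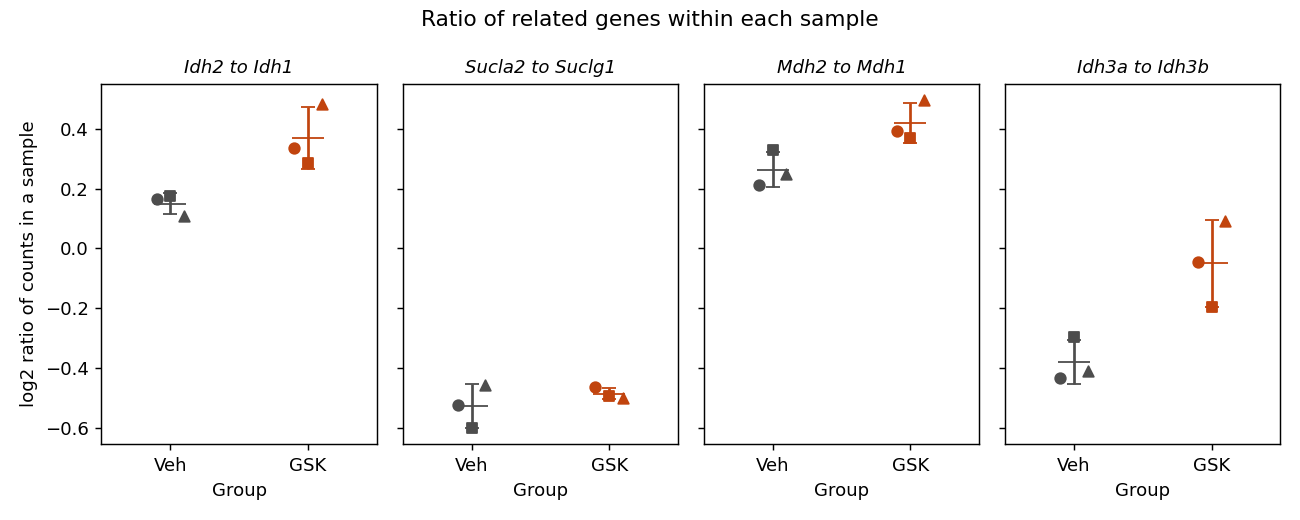
Log2 ratio of the counts of 2 related genes within each sample, for Idh2 to Idh1, Sucla2 to Suclg1, Mdh2 to Mdh1 and Idh3a to Idh3b, with 1 point per sample (a marker shape for each replicate number) and the mean ± SD of each group (n = 3). The groups are apart in 3 of the 4 ratios and overlap for Sucla2 to Suclg1, where the GSK mean is 0.041 above the Veh mean. Each of those 3 ratios holds a gene that was called by itself (Idh1, Mdh2 or Idh3a). For single genes, the groups did not overlap for 46.7% of all genes tested, and the share over gene pairs was not computed.

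The 12 other genes of the cycle complete its steps. By edgeR's quasi-likelihood test (adjusted p under 0.05), 4 of these rose, 0 fell and 8 did not pass. Of all genes tested, 16.6% were called higher and 15.5% lower. The median log2 fold change of the 12 was 0.049, and 0 of the 12 passed a fold change of 1.5. At an unadjusted p under 0.05, and by DESeq2, 0 of the 12 were lower as well. Dlst and Suclg2, described above, and Sdhb were among those that rose. The exons of Idh3b and Mdh1 overlap genes on the opposite strand, and whether the counting used the strand is not given in the sources used here.

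Succinate dehydrogenase ties the cycle to the respiratory chain. Its iron-sulfur subunit Sdhb rose from 137 ± 6.74 to 156 ± 4.56 CPM (SD, n = 3; log2 fold change 0.19, adjusted p = 0.011, edgeR, and 0.058 without Veh replicate 1). Its flavoprotein Sdha (log2 fold change 0.032, adjusted p = 0.57) and its membrane anchors Sdhc (0.063, adjusted p = 0.35) and Sdhd (0.035, adjusted p = 0.63) did not pass by edgeR. Aco1, the cytosolic aconitase that can also bind iron-responsive RNA elements, was at 59.3 ± 7.81 CPM in Veh against 65.0 ± 2.78 CPM in GSK (SD, n = 3; log2 fold change 0.13, adjusted p = 0.26, edgeR, and 0.049 without Veh replicate 3). Of the cytosolic genes Idh1, Aco1 and Mdh1, the first fell and the other two did not pass.

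**Figure D3:**
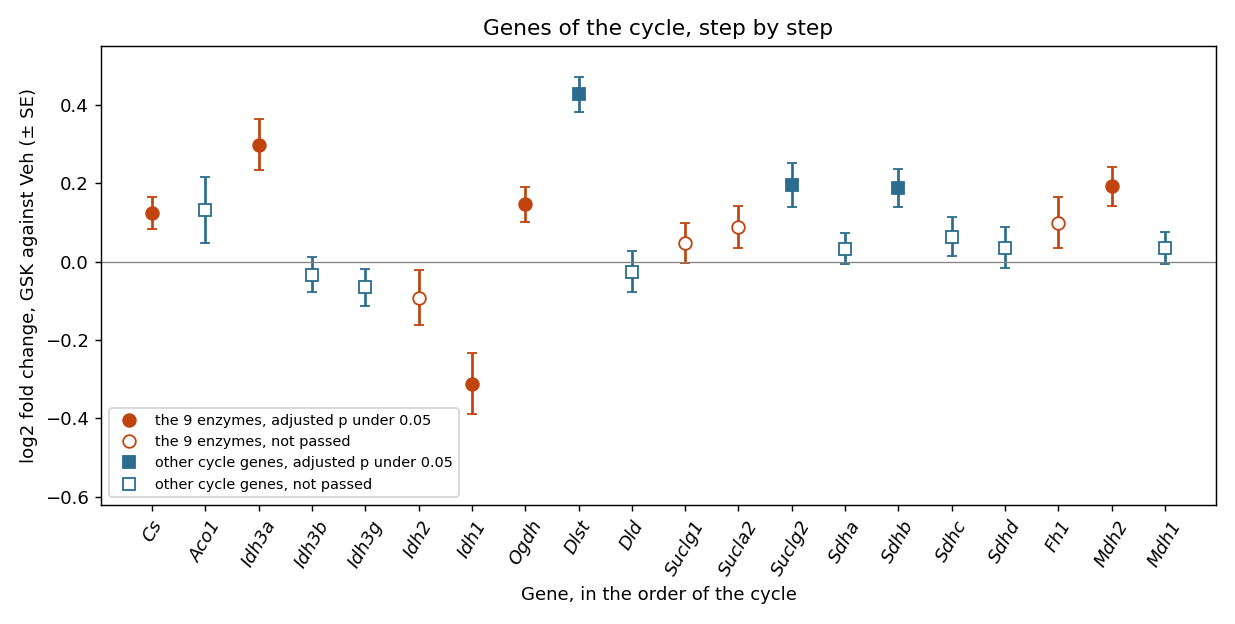
Log2 fold change of GSK against Veh ± standard error (edgeR, 3 samples per group) for the 9 enzymes (circles) and 11 other cycle genes (squares), ordered by the steps of the cycle, with filled symbols at an adjusted p under 0.05. Dlst (0.43) and Idh3a (0.30) stand highest, and Idh1 (-0.31) is the 1 filled symbol below 0.

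The annotated lengths allow the genes to be ranked by level, as CPM per kilobase of annotated exons (GENCODE M21). Among the 9 enzymes in Veh, Mdh2 was highest with 78.2 ± 2.29, followed by Cs with 67.8 ± 0.983, Ogdh with 38.9 ± 0.834, Fh1 with 23.2 ± 1.43, Idh3a with 20.5 ± 1.19, Suclg1 with 18.6 ± 0.757, Sucla2 with 14.9 ± 0.410, Idh2 with 12.5 ± 0.337 and Idh1 with 10.6 ± 0.504 CPM per kilobase (SD, n = 3). Of the neighbours in this order, the Veh samples overlapped for Idh3a and Suclg1 and were apart for the other 7 pairs. In GSK the same scale put Idh3a at 25.2 ± 2.24 and Fh1 at 24.9 ± 1.92, whose samples overlapped. The transcript lengths used by these cells were not measured, so the order rests on the annotation.

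**Figure D4:**
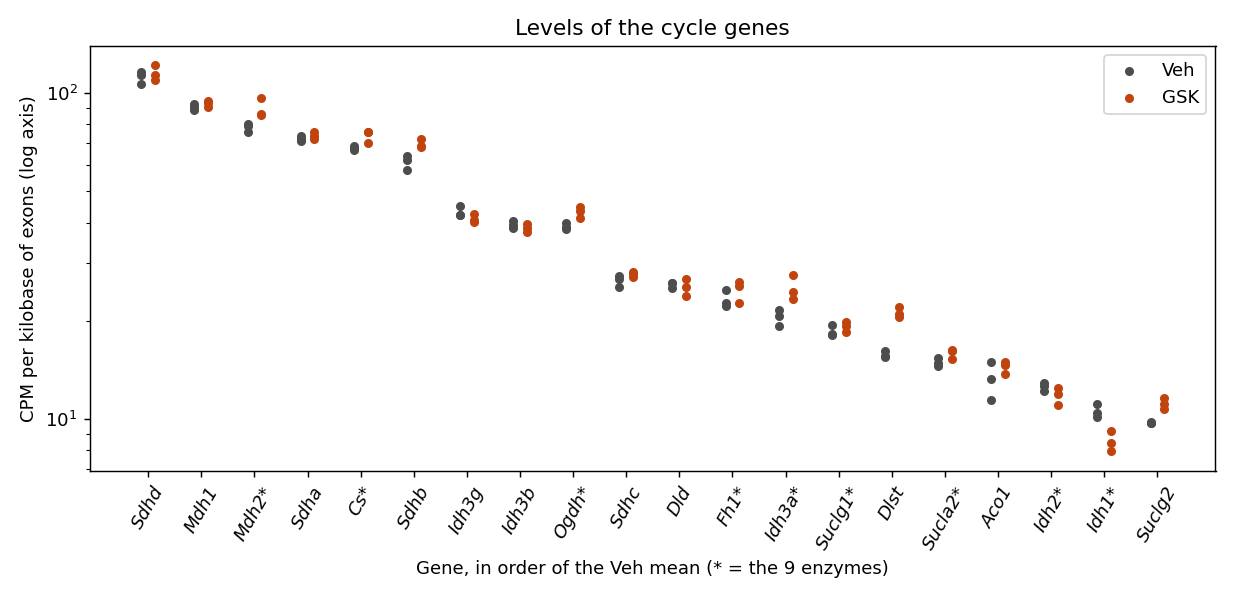
Level of 20 cycle genes in each sample as CPM per kilobase of annotated exons on a log axis, in order of the Veh mean, with 3 points per group and an asterisk on the 9 enzymes. The 9 enzymes span from 78.2 for Mdh2 to 10.6 for Idh1 in Veh, and within a gene the samples lie close together by comparison.

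Within a group, the order of the samples was alike for most of the enzymes. Veh replicate 1 was the lowest Veh sample for all 9 enzymes, whereas it was lowest for 33.7% of all genes tested, and GSK replicate 2 was the lowest GSK sample for 7 of the 9, against 36.6% of all genes. GSK replicate 3 was the highest for 6 of the 9, against 35.8%. The number of enzymes called higher was 1 without Veh replicate 1, 2 without Veh replicate 2, GSK replicate 1 or GSK replicate 3, 3 without Veh replicate 3 and 5 without GSK replicate 2, and Idh1 was the 1 enzyme called lower in each case. Summed over the 9 enzymes, the level was 1237, 1298 and 1281 CPM in Veh and 1402, 1331 and 1461 CPM in GSK. Every GSK sum was above every Veh sum. Cs, Mdh2 and Ogdh, each called higher, weigh most in these sums, with Veh means of 392, 279 and 212 CPM. Idh1, which fell, averaged 29.3 CPM in Veh and weighs little. For single genes, the groups did not overlap for 5 of the 9 enzymes, a share near that of all genes tested, 46.7%.

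The genes whose profile over the 6 samples was most like that of Idh3a, by the root mean square difference of log2 CPM centred on each gene's mean, were Pfdn4 (0.018), a prefoldin subunit, Set (0.025) and Snu13 (0.025). For Idh1 these were Maff (0.020), Nek1 (0.025), a protein kinase, and Fam114a2 (0.026). Maff was at 3.42 ± 0.238 CPM in Veh against 2.78 ± 0.197 CPM in GSK (SD, n = 3) and did not pass the test (adjusted p = 0.27, edgeR). None of these genes is an enzyme of the cycle.

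Pyruvate enters the cycle through its mitochondrial carrier and the pyruvate dehydrogenase complex, which the kinases PDK1 to PDK4 switch off. Of this route's 13 tested genes, 0 rose and 1 fell (edgeR, adjusted p under 0.05), against 16.6% and 15.5% of all genes tested. The median log2 fold change of the 13 was 0.013. DESeq2 likewise called 0 higher and 1 lower, 3 were higher at an unadjusted p under 0.05, and 1 was called higher without GSK replicate 2. The one that fell was Pdk1, from 302 ± 11.1 to 194 ± 17.8 CPM (SD, n = 3; log2 fold change -0.64, SE 0.061, adjusted p = 2.5e-05), which also passed the fold change of 1.5. Pdha1, the catalytic subunit that this kinase phosphorylates, was at 182 ± 3.97 CPM in Veh against 184 ± 5.21 CPM in GSK (adjusted p = 0.84), and Pdk3 had a log2 fold change of -0.065 (adjusted p = 0.42).

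Anaplerotic and cataplerotic enzymes fill and drain the cycle. Of the 20 tested, 1 rose and 4 fell (edgeR), against 16.6% and 15.5% of all genes tested. The median log2 fold change of the 20 was -0.11. Pck2, the mitochondrial phosphoenolpyruvate carboxykinase, which draws on oxaloacetate, fell from 56.2 ± 7.19 to 33.4 ± 1.10 CPM (SD, n = 3; log2 fold change -0.75, adjusted p = 6.8e-05), and Gls2, a glutaminase of low level here, from 9.26 ± 1.84 to 5.53 ± 0.175 CPM (log2 fold change -0.74, adjusted p = 0.0034). Me2, a mitochondrial malic enzyme, had a log2 fold change of -0.19 (adjusted p = 0.0056). Gpt2, the mitochondrial alanine aminotransferase, had one of -0.32 (adjusted p = 0.029), a call lost with DESeq2 (0.053) and without Veh replicate 2 (0.13), Veh replicate 3 (0.070), GSK replicate 2 (0.069) or GSK replicate 3 (0.066). Got1, the cytosolic aspartate aminotransferase, rose (log2 fold change 0.21, adjusted p = 0.0096, edgeR). Its mitochondrial relative Got2 (0.045, adjusted p = 0.50) and Glud1, glutamate dehydrogenase (0.089, adjusted p = 0.11), did not pass.

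Among the 9 tested genes that export cycle intermediates or handle acetyl units, 2 rose and 2 fell (edgeR). Over all genes tested, 16.6% rose and 15.5% fell. The median log2 fold change of the 9 was 0.059. Slc25a22, a mitochondrial glutamate carrier, rose from 30.4 ± 2.49 to 39.9 ± 1.10 CPM (SD, n = 3; log2 fold change 0.39, adjusted p = 0.0014). Acly, which splits exported citrate into acetyl-CoA and oxaloacetate, rose slightly (log2 fold change 0.14, adjusted p = 0.015, edgeR), and the call was lost with upper-quartile scaling (0.061) and without Veh replicate 1 (0.077), Veh replicate 3 (0.057) or GSK replicate 1 (0.076). The acetyl-CoA synthetases Acss2 and Acss1, which make acetyl-CoA from acetate in the cytosol and in mitochondria, fell by 0.81 (adjusted p = 1.1e-04) and by 0.63 (adjusted p = 0.015) on the log2 scale (edgeR), and both passed the fold change of 1.5. The carriers Slc25a11 (log2 fold change -0.037, adjusted p = 0.57) and Slc25a12 (0.059, adjusted p = 0.42) did not pass.

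Of the 11 tested accessory genes (assembly factors of succinate dehydrogenase, lipoylation enzymes, 2-hydroxyglutarate dehydrogenases and relatives), 0 rose and 1 fell by edgeR, whereas DESeq2 called 0 in either direction and, at an unadjusted p under 0.05, 1 was higher and 1 lower. By edgeR, 16.6% of all genes tested rose and 15.5% fell. The median log2 fold change of the 11 was 0.074. The gene that fell by edgeR was D2hgdh, which oxidizes D-2-hydroxyglutarate to 2-oxoglutarate, at 20.5 ± 1.71 CPM in Veh against 16.6 ± 1.33 CPM in GSK (SD, n = 3; log2 fold change -0.30, adjusted p = 0.025, edgeR). The adjusted p was 0.054 with DESeq2, 0.12 without Veh replicate 1 and 0.074 without GSK replicate 2. Sdhaf2 (log2 fold change 0.013) and Lias, lipoyl synthase (0.046), had adjusted p-values of 0.89 and 0.64 by edgeR.

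**Figure D5:**
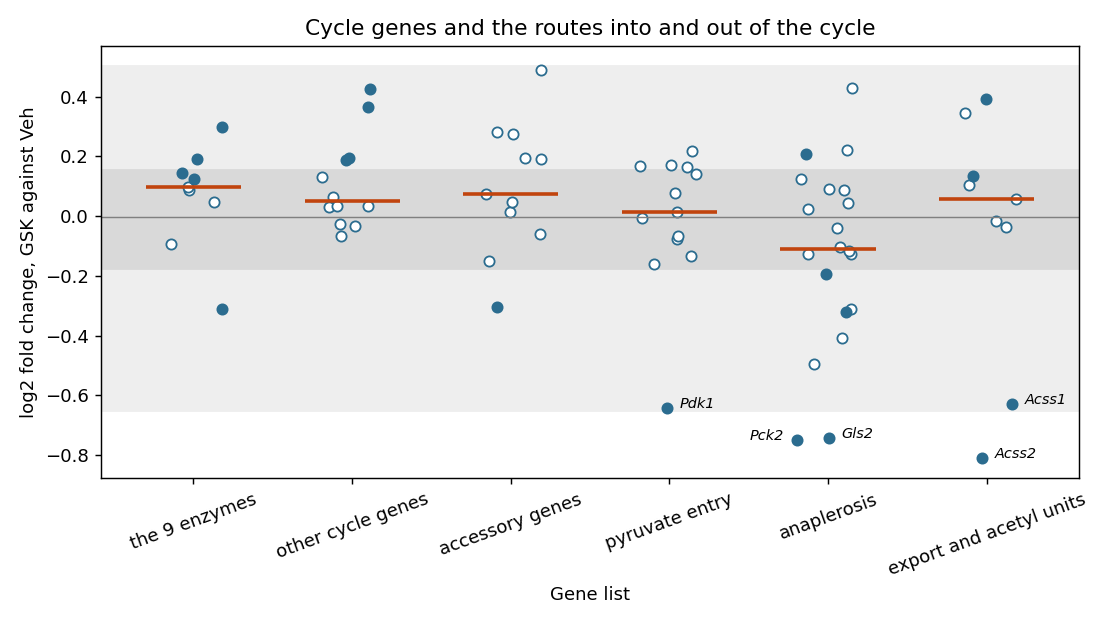
Log2 fold change of GSK against Veh for each tested gene of the 6 lists, 1 point per gene, filled at an adjusted p under 0.05 (edgeR), with a bar at each list's median and shading over the 5th to 95th (light) and 25th to 75th (dark) percentile of all 11698 genes tested. The enzymes of the cycle lie between -0.31 and 0.43, inside the light band from -0.65 to 0.50, while Pck2, Gls2 and Acss2 lie below it.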

How the data were processed

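RNA-seq counts of 6 samples were used, 3 GSK and 3 Veh, grouped by their titles. The authors trimmed reads with Trimmomatic, mapped them to GRCm38 with hisat2 (version 2.1.0) and obtained read numbers per gene from HTSeq-count (version 0.11.2), and the deposited counts are not normalized. The annotation release and the strand setting of the counting are not given in the sources used here. In R (version 4.3.3), edgeR (version 4.0.16) was run on the whole table with TMM scaling, filterByExpr, group as the one term and the robust quasi-likelihood test, with Benjamini-Hochberg adjustment over all genes tested. Standard errors were derived from the test statistic. This test replaced the DESeq2 of the study's methods, and DESeq2 (version 1.42.0) was an alternative, beside RLE, upper-quartile and no scaling factors, 2 other filters, the replicate block, the fold threshold of 1.5 and each sample left out. The code was checked on simulated counts. There edgeR recovered 40.3% of 67 genes changed 1.2-fold and 97.0% of 67 changed 1.5-fold (adjusted p under 0.05). A gene that did not pass can thus still hold a difference as small as those of the enzymes.

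The enzymes and gene lists were chosen with earlier results of these data known. Named were the cycle genes (1 of the other cycle genes is counted but not reported here by name) and, per other list, the passing genes (at most 5 per direction) and the 2 others of highest mean CPM, and for the 2 enzymes with the smallest p the 3 genes most alike (log2 CPM, prior count 2). Markers, overlapping genes and Csl were named beyond this rule. Coordinates are from RefSeq (GRCm38.p6), matched by Entrez identifier. Intervals and tests cover the spread between these samples.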

Additional observations from a re-analysis of the deposited data

How the results depend on the processing

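For the 9 enzymes, 4 were higher and 1 lower with DESeq2, RLE size factors and both other filters on low counts. The count of higher enzymes was 3 with library totals only (Cs lost, adjusted p = 0.059, edgeR), 3 with the replicate block, 2 with upper-quartile scaling and 1 to 5 with each sample left out. Asking for a fold change over 1.5 left 0 higher and 0 lower enzymes, 0 higher other cycle genes, 0 lower accessory genes, 0 higher and 2 lower anaplerotic genes and 0 higher export genes. Upper-quartile scaling gave 2 lower pyruvate entry genes and 1 higher export gene, and DESeq2 gave 0 lower accessory genes. With each sample left out, the counts ran from 2 to 4 for higher other cycle genes, 0 to 1 for lower accessory genes, 0 to 1 for higher pyruvate entry genes, 1 to 2 for higher anaplerotic genes and 1 to 3 for higher export genes. The replicate block took the adjusted p of Cs to 0.071 and of Gpt2 to 0.059 (edgeR) and ended no other call of a cycle or list gene named. Samples with the same number had deviations that correlated at -0.052, -0.081 and 0.16, so the numbers were not taken as pairs. Over the 32 genes followed through 13 alternatives each, no called difference changed direction, 382 values kept their side of the threshold, 32 lost it and 2 reached it, and adding 0.5 to each count moved the within-sample ratios by less than the spread between Veh samples. Depth limited the genes of low level, and 7 listed genes fell under the filter and were not tested (Dhtkd1, Pdk4, Me3, Acod1, Slc25a21, Slc13a3 and Slc13a5).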
